A study of Mus musculus with 12 samples.

Results

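Intermediate progenitors are the basally dividing cells of the embryonic cortex that stand between radial glia and neurons, and 10 genes of these cells and of the step that commits a progenitor to a neuronal fate were followed here: Eomes, Neurog1, Neurog2, Neurod4, Insm1, Hes6, Btg2, Gadd45g, Sstr2 and Tmem158. Members were taken by name, as all probe sets whose single platform symbol was one of the 10, which gave 18 of 28898 single-gene probe sets and 10 of 17097 genes. The values were log2 intensities from 12 arrays, 3 in each of 4 groups of mixed genetic background.

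One experiment used E11.5 embryos, whose forebrain and midbrain carried TetO-YAP1 together with Nes-rtTA (YAP overexpression), and the comparison tissue carried Nes-rtTA alone (YAP control). TetO-YAP1 is a doxycycline-dependent allele of YAP1 with the S127A change, which removes a serine that the Hippo kinases phosphorylate. The Nestin promoter drives the transactivator in neural progenitors, and dams received 200 mg/kg doxycycline in their food from E7.5. In the sample annotation used here, the YAP control arrays carry the same dose and start day. The labels do not say outright whether the dams of the controls received it too. Doxycycline and YAP overexpression cannot be told apart if they did not. In the second experiment, dorsal telencephalon at E13.5 was Nf2F/F;Emx1-Cre (Nf2 knockout) or Nf2F/+;Emx1-Cre (Nf2 control), so both groups carried the Cre and the controls had lost 1 copy of Nf2 in the recombined cells. Nf2 encodes Merlin, an upstream activator of the Hippo kinases, which restrain the co-activator YAP.

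In the developing cortex, radial glia that express the proneural basic helix-loop-helix (bHLH) factors Neurog1 and Neurog2 switch on a cascade that includes Eomes, Insm1, Hes6 and the NeuroD factors. Notch signalling, acting through Hes1 and Hes5, holds neighbouring cells back from this step. Eomes (Tbr2) is the standard marker of cortical intermediate progenitors, and Btg2 (Tis21) marks progenitors that are about to produce neurons.

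Within each group, pairs of arrays had correlations across genes of 0.994 or more. The median of an array was between 5.03 and 5.10 for the 6 arrays of the YAP experiment and between 4.30 and 4.42 for the 6 of the Nf2 experiment, so levels were set against each other only within an experiment. Yap1 read 11.35, 11.23 and 11.33 in YAP overexpression, against 11.07, 10.99 and 11.05 in YAP controls (adjusted p = 0.0551). Nf2 read 8.06, 8.27 and 8.11 in Nf2 knockouts, against 8.41, 8.66 and 8.51 in Nf2 controls (adjusted p = 0.246), and whether these probes lie in the transgene or in the deleted exons is not known here. Of the markers of the dorsal telencephalon, 4 of 4 measured (Emx1, Emx2, Lhx2, Lhx9) were above the array median on every array of the Nf2 experiment and 3 of 4 on every array of the YAP experiment. Midbrain markers were above it in 0 of 7 cases in the Nf2 experiment and in 3 of 7 (En2, Foxa2, Pou4f1) in the YAP experiment.

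The start sites of 8 members were matched in RefSeq's promoter table (GRCm38.p6), with 10 windows of 250 bases upstream of a start. All 8 of these members fell in YAP overexpression. The windows of 5 of them are printed as examples that hold, or lack, the motifs through which the bHLH factors of this pathway bind DNA. They are Eomes at chr9:118477939-118478188 (plus strand), Sstr2 at chr11:113619077-113619326 (plus strand), Neurog1 at chr13:56252181-56252430 (minus strand), Hes6 at chr1:91414039-91414288 (minus strand) and Gadd45g at chr13:51846425-51846674 (plus strand). Each is written 5′ to 3′ on the gene's strand, and capitals mark an E-box (CANNTG) or the Hes motif CACNAG on either strand.
Eomes: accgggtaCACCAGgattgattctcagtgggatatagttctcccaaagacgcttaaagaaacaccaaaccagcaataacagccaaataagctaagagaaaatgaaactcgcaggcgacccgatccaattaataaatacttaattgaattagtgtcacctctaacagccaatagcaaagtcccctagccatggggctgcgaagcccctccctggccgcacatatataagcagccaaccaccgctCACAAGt
Sstr2: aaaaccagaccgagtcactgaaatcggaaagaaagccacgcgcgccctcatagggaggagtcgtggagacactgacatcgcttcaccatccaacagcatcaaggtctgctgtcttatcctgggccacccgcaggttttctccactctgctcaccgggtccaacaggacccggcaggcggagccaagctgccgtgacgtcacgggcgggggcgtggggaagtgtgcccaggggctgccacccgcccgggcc
Neurog1: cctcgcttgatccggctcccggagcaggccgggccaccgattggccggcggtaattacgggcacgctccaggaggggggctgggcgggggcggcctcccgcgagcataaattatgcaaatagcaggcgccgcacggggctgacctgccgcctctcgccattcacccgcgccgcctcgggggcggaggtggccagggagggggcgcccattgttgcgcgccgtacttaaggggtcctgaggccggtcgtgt
Hes6: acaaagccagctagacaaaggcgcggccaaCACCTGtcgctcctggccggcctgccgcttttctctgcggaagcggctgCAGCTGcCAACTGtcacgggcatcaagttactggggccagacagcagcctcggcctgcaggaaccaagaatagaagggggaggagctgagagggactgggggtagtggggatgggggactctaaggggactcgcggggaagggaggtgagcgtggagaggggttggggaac
Gadd45g: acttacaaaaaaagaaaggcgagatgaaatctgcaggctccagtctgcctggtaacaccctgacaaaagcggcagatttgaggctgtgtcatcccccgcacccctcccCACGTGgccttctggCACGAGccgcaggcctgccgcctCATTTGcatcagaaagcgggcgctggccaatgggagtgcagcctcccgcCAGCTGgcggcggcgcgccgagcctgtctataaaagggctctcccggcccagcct

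E-boxes, to which proneural factors bind as pairs with E proteins, were found in the windows of 2 of 8 members, Hes6 and Gadd45g, and in 66.2% of all 32851 promoter windows of the same length. Those of Gadd45g began at -142, -104 and -55 from the start, and those of the printed Hes6 window at -220, -171 and -164. The E-box subtype CAGCTG was in both genes (13.0% of all windows), CACGTG was in Gadd45g (6.02%), and CAGATG (14.4%) and CATATG (3.46%) were in none of the 8. All of these subtypes are contained in the general E-box. CACNAG was in 4 of 8 members, namely Eomes, Neurod4, Hes6 and Gadd45g (36.7% of all windows), and in Eomes it began at -242 and -7. The TEAD motif GGAATG, through which YAP's partners bind, was in none of the 10 windows (12.6% of all windows). These are matches of letters within 250 bases and say nothing of binding there or elsewhere.

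The first comparison asked how these genes differ when YAP is overexpressed in the E11.5 brain. Of the 10 members, 8 fell, none rose, and Insm1 and Tmem158 were not called, at an adjusted p under 0.05 in a limma fit over all genes. Over all genes 3.64% fell. The members were chosen with earlier results of these data known, so this contrast describes them and is not independent support. The 8 changes ran from -1.22 for Eomes to -0.47 for Neurod4 on the log2 scale, or 0.428-fold to 0.724-fold. The median log2 change was -0.66 over the 10 members and -0.01 over all genes. In bulk tissue, fewer cells of a type and less RNA per cell cannot be told apart. Labels do not say that the 3 arrays of a group came from separate embryos, so the spread that p-values rest on is that of the arrays at hand, and could be partly technical.

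**Figure D1:**
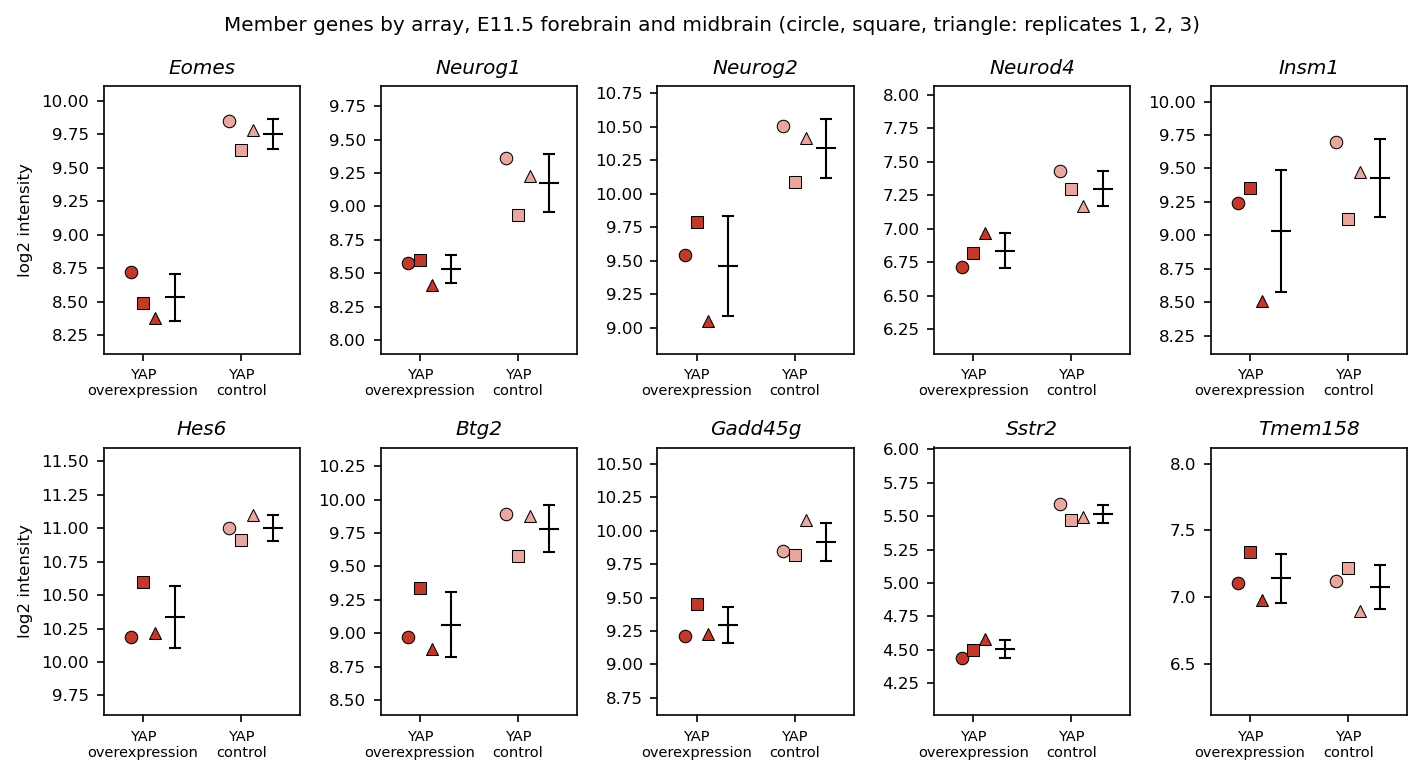
Log2 intensity of the brightest probe set of each member on the 6 arrays of the YAP experiment, with YAP overexpression left of YAP control; circle, square and triangle are replicates 1, 2 and 3, and the bar is the mean with its SD. Each panel spans the same range of log2 units, and the groups do not overlap for 8 of 10 genes.

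Eomes, a T-box transcription factor gene (chr9:118478186-118486132), read 8.72, 8.49 and 8.38 in YAP overexpression, against 9.85, 9.63 and 9.78 in YAP controls. Every overexpression array was below every control array. The means were 8.53 ± 0.17 and 9.75 ± 0.11 (SD, n = 3 each), and Eomes fell by 1.22 on the log2 scale (SE 0.10, adjusted p = 3.21e-05). Its other probe set read 7.87, 7.70 and 7.74 in YAP overexpression, against 9.37, 9.06 and 9.47 in YAP controls, and fell by 1.53 (SE 0.12, adjusted p = 2.38e-05 over all probe sets). Both probe sets therefore separated the groups, the dimmer one by more.

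Among the proneural bHLH genes, Neurog2 (chr3:127632733-127635636), the main neurogenin of the dorsal cortex, read 9.54, 9.79 and 9.05 in YAP overexpression, against 10.51, 10.09 and 10.42 in YAP controls. The groups did not overlap, but replicate 2 was the highest array of YAP overexpression and the lowest array of the controls. Neurog2 fell by 0.88 (SE 0.16, adjusted p = 0.00631). This call was lost when only the 6 arrays of this experiment were fitted (adjusted p = 0.0632). Neurog1 (chr13:56250478-56252180), its relative that acts in cortex and sensory lineages, read 8.58, 8.60 and 8.41 in YAP overexpression, against 9.36, 8.94 and 9.23 in YAP controls, and fell by 0.65 (SE 0.11, adjusted p = 0.0043). A further Neurog1 probe set lay under the array median on every array and differed by 0.03 (SE 0.10).

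Neurod4 (chr10:130268152-130280254), a bHLH gene of early neuronal differentiation, read 6.71, 6.82 and 6.97 in YAP overexpression, against 7.43, 7.30 and 7.17 in YAP controls. The groups did not overlap, with 0.20 between their nearest arrays. It fell by 0.47 (SE 0.12, adjusted p = 0.0374), and this call was lost in 10 of 15 alternative settings (adjusted p from 0.0505 to 0.131 in those 10), so it was the least firm of the 8. A dimmer Neurod4 probe set read 5.04, 5.53 and 5.18 in YAP overexpression, against 6.0, 5.92 and 5.82 in YAP controls, and fell by 0.66 (SE 0.11, adjusted p = 0.00631 over all probe sets). The remaining one lay under the array median throughout and differed by -0.03 (SE 0.10).

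Insm1 (chr2:146221997-146225020), a zinc finger gene that promotes the formation of basal progenitors, read 9.24, 9.35 and 8.51 in YAP overexpression, against 9.70, 9.12 and 9.47 in YAP controls. The groups overlapped, because replicate 2 of the controls was below replicates 1 and 2 of YAP overexpression. Its difference of -0.40 (95% confidence interval -0.84 to 0.05, adjusted p = 0.322) was not called. Without replicate 3 of YAP overexpression it was -0.14. Hes6 (chr1:91411483-91414038), a Hes relative that opposes Hes1 and promotes neurogenesis, read 10.19, 10.60 and 10.22 in YAP overexpression, against 11.0, 10.91 and 11.10 in YAP controls. It fell by 0.67 (SE 0.10, adjusted p = 0.00247), and its other probe set by 0.81 (SE 0.11, adjusted p = 0.00149 over all probe sets).

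The growth arrest genes fell as well. Btg2 (chr1:134074865-134079155), an antiproliferative co-regulator, read 8.97, 9.34 and 8.88 in YAP overexpression, against 9.89, 9.58 and 9.88 in YAP controls. It fell by 0.72 (SE 0.12, adjusted p = 0.00533), and by 0.76 (SE 0.11, adjusted p = 0.00214 over all probe sets) on its other probe set. Gadd45g (chr13:51846675-51848475), a stress-response and growth arrest gene switched on at neuronal commitment, read 9.21, 9.45 and 9.23 in YAP overexpression, against 9.85, 9.82 and 10.08 in YAP controls. It fell by 0.62 (SE 0.09, adjusted p = 0.00171), and in both genes replicate 2 was the highest array of YAP overexpression and the lowest array of the controls.

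The membrane protein genes differed from each other. Sstr2 (chr11:113619327-113626028), a somatostatin receptor gene, read 4.44, 4.50 and 4.58 in YAP overexpression, against 5.59, 5.47 and 5.49 in YAP controls, and was called lower (adjusted p = 9.77e-06). The 3 overexpression values were under their array medians and within the 4.14 to 4.83 covered by the 4 member probe sets that lay under the median on every array, while the 3 control values were above both. The fitted fall of 1.01 is therefore given as a lower bound. Tmem158 (chr9:123259057-123260789), which encodes a transmembrane protein, read 7.11, 7.34 and 6.98 in YAP overexpression, against 7.12, 7.22 and 6.90 in YAP controls. Its groups overlapped almost completely and it differed by 0.06 (95% confidence interval -0.17 to 0.30, adjusted p = 0.818).

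Of the 18 probe sets, 11 fell and 7 were not called, where 2.3% of all 45037 probe sets fell. The brightest Neurod4 probe set was among the 7 here (adjusted p = 0.0523 over all probe sets). A further 4 of them, 1 each of Neurog1 and Neurod4 and 2 of Tmem158, lay under the array median on all 12 arrays. By gene, the YAP groups did not overlap for 8 of 10 members, all of them lower in YAP overexpression, where they did not overlap in either direction for 21.3% of all genes.

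**Figure D2:**
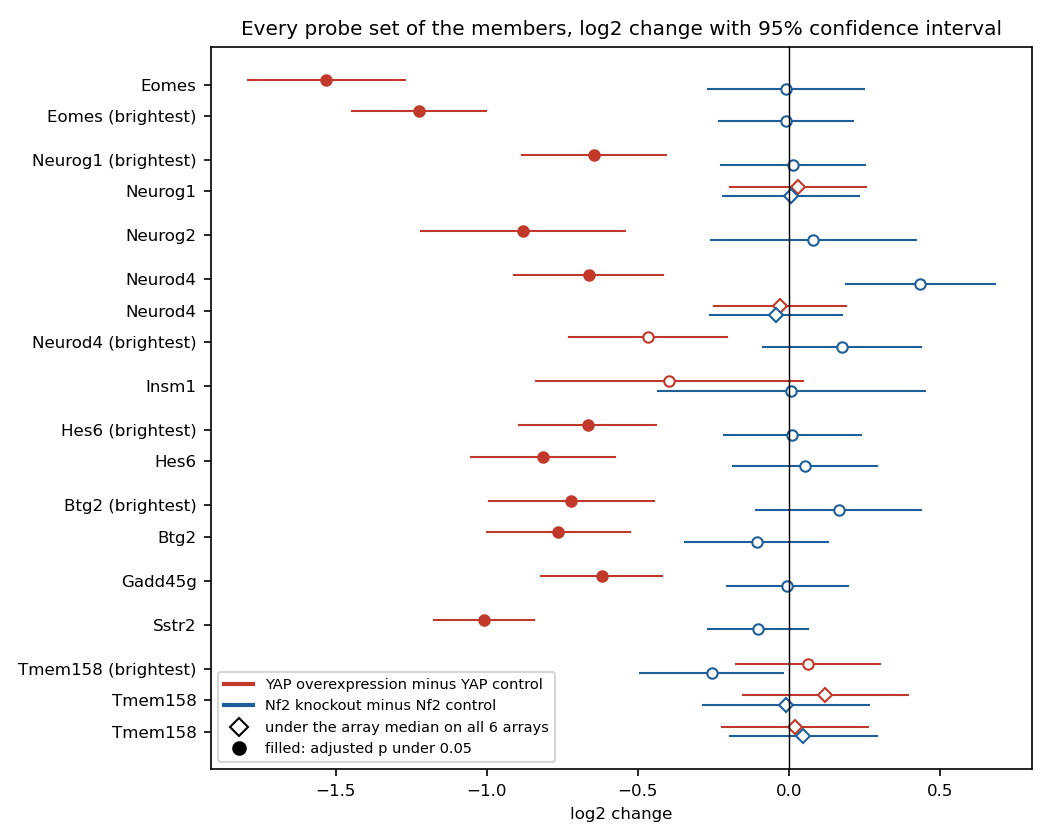
Log2 change with its 95% confidence interval for each of the 18 member probe sets, in YAP overexpression minus YAP control (red, upper of each pair) and Nf2 knockout minus Nf2 control (blue, lower). Filled points passed an adjusted p under 0.05 over all probe sets and diamonds lay under the array median on all 6 arrays; the 11 filled points are all red and left of 0.

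The members also shared a spread within the groups, and how many of all genes shared it was not counted. In YAP overexpression, replicate 2 was the highest array for 7 of 10 members and the lowest for none, and replicate 3 was the lowest for 6. In YAP controls, replicate 1 was the highest array for 7 of 10 members and replicate 2 the lowest for 8. As a mean over the 10 members, set against the mean of the YAP controls, the overexpression arrays stood at -0.66, -0.50 and -0.81, against 0.10, -0.12 and 0.02 for the control arrays. The highest overexpression array was thus below the lowest control array.

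Members were left out of the rankings by likeness of profile. Of the other genes, those most like the mean of the 10 members began with Dab1, an adaptor of Reelin signalling. The neuronal RNA-binding protein gene Elavl2, the Notch ligand gene Dll1, the cortical homeobox gene Lhx2, and Frmd4b followed. Likeness was the root mean square difference over the 12 arrays, each array given as its deviation from the mean of its own experiment's controls, and it was 0.06, 0.07, 0.07, 0.08 and 0.08 log2 units for these 5. For Eomes alone the nearest genes outside the members were Myt1, a zinc finger gene of neuronal differentiation (0.16), Arrdc4 (0.16) and Serpini1, which encodes neuroserpin (0.19). Slc17a6, a vesicular glutamate transporter gene (0.20), and Shox2 (0.21) followed. Sstr2 was the member nearest to Eomes (0.157), and Tmem158 was the member farthest from it (0.67). Having been picked for a profile that falls, the ranked genes outside the members had YAP changes from -1.16 to -0.58, given as a description.

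Genes beside and below the neurogenins moved with the members. Of 14 measured genes of the neurogenic cascade, 12 fell, none rose and 2 were not called, where 6.31% of all genes were called in either direction, and their median was -0.75. The largest were St18 (-1.56, SE 0.14), Myt1 (-1.10, SE 0.13) and Mfng (-1.003, SE 0.10), with adjusted p of 7.36e-05, 0.000474 and 0.00016. The later cortical factors Neurod6 (-0.47, adjusted p = 0.111) and Neurod2 (-0.29, adjusted p = 0.469) were not called. Neurod6 was above the array median on 0 of 6 arrays of the YAP experiment, so a fall in it could hardly be seen. Neurod2 was above the array median on all 6. Of 7 other genes enriched in basal progenitors, 4 fell, none rose and 3 were not called. Cux2, an upper-layer homeobox gene (-0.84, SE 0.15, adjusted p = 0.00651), and the RNA-binding protein gene Elavl4 (-0.82, SE 0.08, adjusted p = 0.000133) fell, as did Sox4 and Sox11 (-0.47 and -0.45), and Mfap4 was not called (-0.66, adjusted p = 0.0748).

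The dimerisation partners and repressors of proneural factors held calls in both directions. Of 11, Hes1 rose (0.60, SE 0.10, adjusted p = 0.00359), Hey1 (-0.67, SE 0.09, adjusted p = 9e-04) and the E protein gene Tcf4 (-0.53, SE 0.09, adjusted p = 0.00384) fell, and 8 were not called, with a median of -0.11. Hes5 differed by -0.55 (adjusted p = 0.176), and the Id genes, whose products bind E proteins and block proneural factors, by -0.35 to 0.17. Of 14 relatives of the members, Tbr1, the T-box relative of Eomes expressed in early cortical neurons, fell by 1.49 (SE 0.25, adjusted p = 0.00477) and Btg1 by 0.53 (SE 0.07, adjusted p = 0.000794), Btg3 rose by 0.38 (SE 0.08, adjusted p = 0.0108), and 11 were not called. Gadd45a (-0.36, adjusted p = 0.101), Gadd45b (0.40, adjusted p = 0.228) and Neurog3 (0.16, adjusted p = 0.418) were among the 11. So were the receptor genes Sstr1, Sstr3, Sstr4 and Sstr5, with differences from -0.13 to 0.10. Neurog3 and these receptor genes were above the array median on 0 of 6 arrays, so a fall in them could hardly be seen. Of the 14 relatives, 6 were above it on all 6 arrays.

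Some marker lists of cell types and regions fell with the members and others did not, and their part in the members' falls was not tested. Levels of a marker list are the log2 of its summed intensity. Of 4 dorsal telencephalic markers all fell, and their level was 11.52 to 11.65 in YAP overexpression and 12.18 to 12.47 in YAP controls. Of 8 ventral telencephalic markers 7 fell, at 8.98 to 9.52 in YAP overexpression and 10.88 to 11.39 in YAP controls. Of 9 markers of postmitotic neurons 5 fell, at 13.22 to 13.60 in YAP overexpression and 13.66 to 13.94 in YAP controls. Of 10 radial glia markers, 2 rose (Hes1, Vim), 2 fell (Pax6, Fabp7) and 6 were not called, and the summed levels overlapped, at 14.98 to 15.19 in YAP overexpression and 15.01 to 15.09 in YAP controls. None of 7 midbrain markers was called (10.13 to 10.42 in YAP overexpression, 10.09 to 10.39 in YAP controls), nor any of 9 cell division genes (15.36 to 15.49 in YAP overexpression, 15.41 to 15.44 in YAP controls). Erythroid markers were called in 0 of 5 cases, with levels of 15.28 to 15.50 in YAP overexpression and 15.50 to 15.63 in YAP controls that did not overlap. None of 6 endothelial, 6 mesenchymal and 5 microglial markers was called, and their levels overlapped.

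**Figure D3:**
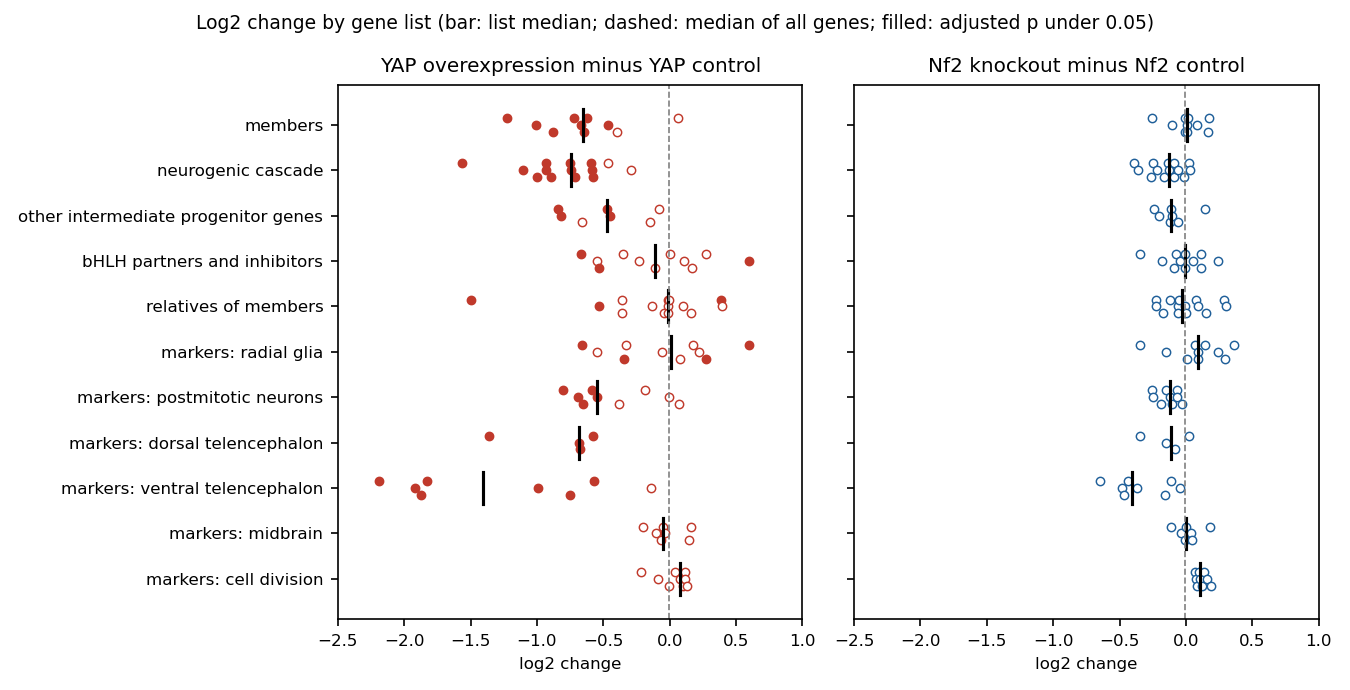
Log2 change of each measured gene by list, for YAP overexpression minus YAP control (left) and Nf2 knockout minus Nf2 control (right); filled points passed an adjusted p under 0.05, black bars are list medians and the dashed line is the median of all genes. On the left the members have a median of -0.66 and the neurogenic cascade -0.75, and on the right no listed gene passed.

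The second comparison asked how the same genes differ when the second copy of Nf2 is lost from the E13.5 dorsal telencephalon. No member was called, at adjusted p from 0.748 to 0.994, where 0.252% of all genes were called. At an unadjusted limma p under 0.05 there was 1 of 10 members, Tmem158, and 6.24% of all genes. The median log2 change was 0.01 over the 10 members. With same-numbered arrays as a replicate block, 0 of 10 members were called again.

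**Figure D4:**
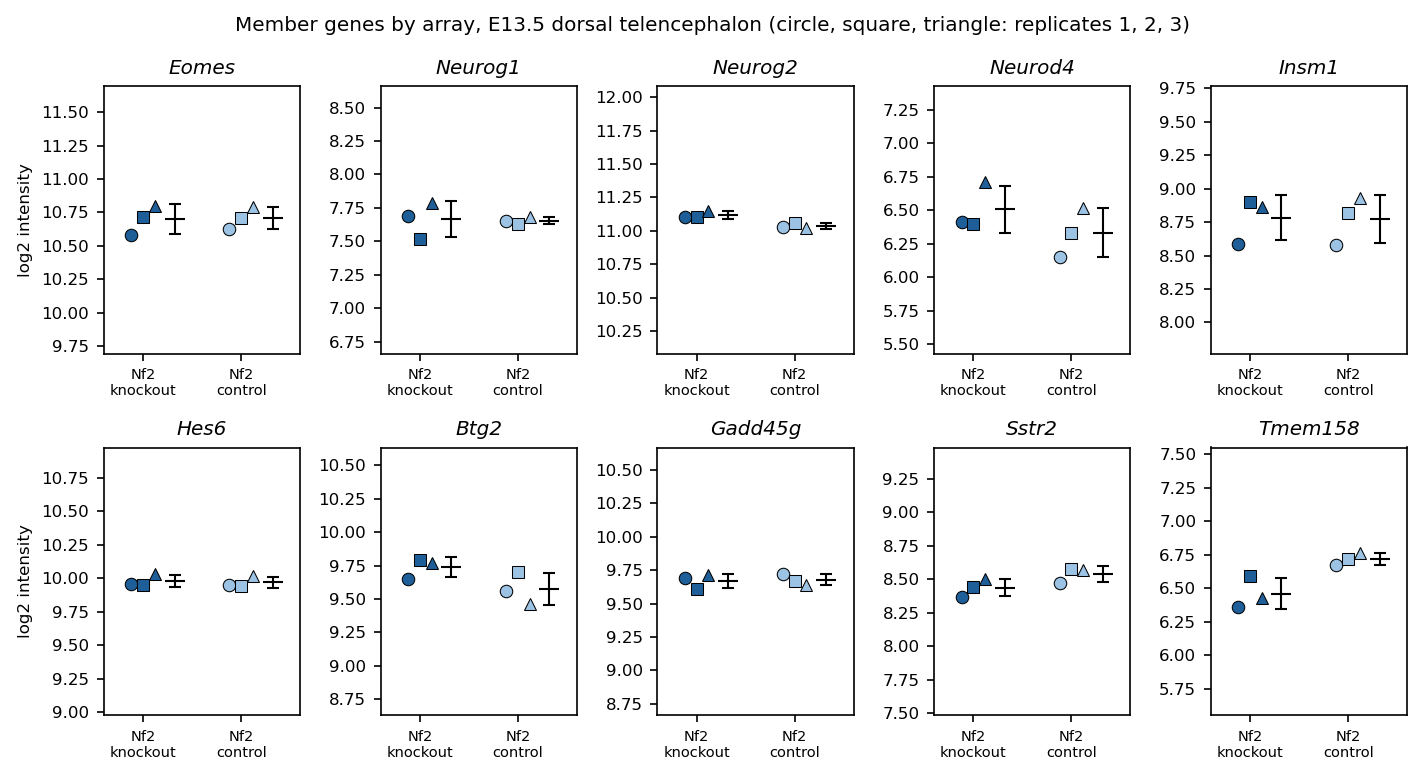
Log2 intensity of the brightest probe set of each member on the 6 arrays of the Nf2 experiment, with Nf2 knockout left of Nf2 control; circle, square and triangle are replicates 1, 2 and 3, and the bar is the mean with its SD. Each panel spans the same range of log2 units as in the plot of the YAP experiment, and the groups overlap for 8 of 10 genes.

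Eomes read 10.58, 10.72 and 10.80 in Nf2 knockouts, against 10.63, 10.71 and 10.79 in Nf2 controls, and same-numbered arrays were within 0.05 of each other. Its difference was -0.01, with a 95% confidence interval of -0.23 to 0.21. Neurog1 read 7.69, 7.52 and 7.79 in Nf2 knockouts, against 7.65, 7.63 and 7.68 in Nf2 controls (0.01, interval -0.22 to 0.25). Hes6 was 0.01 higher in the knockout array of each same-numbered pair (interval of the difference -0.21 to 0.23), and Gadd45g differed by -0.01 (interval -0.20 to 0.19). For these 4 genes the intervals reached no further than -0.23 and 0.25.

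Neurog2 read 11.10, 11.10 and 11.15 in Nf2 knockouts, against 11.03, 11.06 and 11.02 in Nf2 controls, without overlap. Its difference was 0.08 (interval -0.26 to 0.42). The SDs were 0.029 in Nf2 knockouts and 0.021 in Nf2 controls, against 0.376 in YAP overexpression and 0.221 in YAP controls. The fit shared each gene's spread between the experiments, so the YAP arrays widened this interval. Tmem158 read 6.36, 6.59 and 6.43 in Nf2 knockouts, against 6.67, 6.72 and 6.76 in Nf2 controls, without overlap. In the limma fit across all genes Tmem158 differed by -0.26 (interval -0.49 to -0.02), with an unadjusted p of 0.0339 and an adjusted p of 0.748. These were the 2 of 10 members whose groups did not overlap, in opposite directions, where 12.7% of all genes did not. The dimmer Tmem158 probe sets, under the array median throughout, differed by -0.01 and 0.05. Btg2 differed by 0.16 (interval -0.11 to 0.43) on its brightest probe set and by -0.11 on the other, and Sstr2 by -0.10 (interval -0.26 to 0.05). Insm1 read 8.59, 8.90 and 8.86 in Nf2 knockouts, against 8.58, 8.82 and 8.93 in Nf2 controls. It had the widest interval (0.01, from -0.44 to 0.45), which also rests on the spread of the YAP arrays.

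The probe sets of Neurod4 also differed in size here. Its brightest probe set read 6.41, 6.40 and 6.71 in Nf2 knockouts, against 6.15, 6.33 and 6.52 in Nf2 controls (0.17, interval -0.09 to 0.43). A dimmer one read 5.18, 5.26 and 5.12 in Nf2 knockouts, against 4.72, 4.69 and 4.85 in Nf2 controls, without overlap. It differed by 0.43 (SE 0.11) and was not called in the limma fit over all probe sets (unadjusted p = 0.00225, adjusted p = 0.432), nor were the other 17 member probe sets, where 0.133% of all probe sets were called.

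None of the 14 neurogenic cascade genes was called either, and 12 of them had a negative difference, with a median of -0.13 and a range from -0.39 (Srrm4, adjusted p = 0.789) to 0.03 (Dll1). Nhlh1 had the lowest p of them (-0.36, SE 0.08, adjusted p = 0.115). Their summed level was 12.60 to 12.76 in Nf2 knockouts and 12.77 to 12.86 in Nf2 controls. No gene was called among the 7 other basal progenitor genes (median -0.11), the 11 partners and repressors (median -0.0033) or the 14 relatives of the members (median -0.03). The summed level of the 7 was 13.28 to 13.36 in Nf2 knockouts and 13.39 to 13.48 in Nf2 controls, without overlap. Levels of the partners and repressors and of the relatives overlapped. Of the 14 relatives, 6 were above the array median on all 6 arrays of the Nf2 experiment. Radial glia markers stood at 13.99 to 14.09 in Nf2 knockouts and 13.91 to 13.94 in Nf2 controls, and cell division genes at 14.08 to 14.19 in Nf2 knockouts and 13.99 to 14.07 in Nf2 controls, with 0 of 10 and 0 of 9 called. Microglial markers stood at 7.80 to 7.90 in Nf2 knockouts and 7.51 to 7.63 in Nf2 controls, and erythroid markers at 12.99 to 13.03 in Nf2 knockouts and 13.16 to 13.22 in Nf2 controls, with 0 of 5 called in each. Neuronal markers overlapped, at 12.50 to 12.66 in Nf2 knockouts and 12.63 to 12.82 in Nf2 controls. The part of these shifts in the members' values was not tested.

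The difference between the effects of the 2 manipulations was tested as an interaction in the same fit. It was called for 2 of 10 members, where 0.281% of all genes were called. The YAP overexpression effect minus the Nf2 knockout effect was -1.21 for Eomes (SE 0.14, adjusted p = 0.00322) and -0.91 for Sstr2 (adjusted p = 0.00274). For Sstr2 only the direction and a least size are given by this, because its YAP overexpression values lay at the level of the dim probe sets. At an unadjusted limma p under 0.05 there were 8 of 10 members and 10.1% of all genes. The 8 members not called had adjusted p from 0.0678 for Btg2 to 0.705 for Insm1. Of the 18 probe sets 4 were called, where 0.12% of all probe sets were: both of Eomes, that of Sstr2 and the dimmer Neurod4 probe set described above (-1.10, SE 0.16, adjusted p = 0.0212 over all probe sets). With the replicate block only the 2 of Eomes were called, at adjusted p of 0.00866 and 0.0197, and the calls of Sstr2 (adjusted p = 0.0552) and Neurod4 (adjusted p = 0.0903) were lost. At the gene level both Eomes (adjusted p = 0.0152) and Sstr2 (adjusted p = 0.0402) were called with the block. The experiments differed in stage, tissue, driver and kind of control as well as in the manipulated gene, and these cannot be told apart. Leaving out 1 array at a time gave 2 to 6 of 10 members with a called difference. The 6 came without replicate 2 of YAP overexpression, where calls over all genes also rose, from 48 to 161 of 17097.

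**Figure D5:**
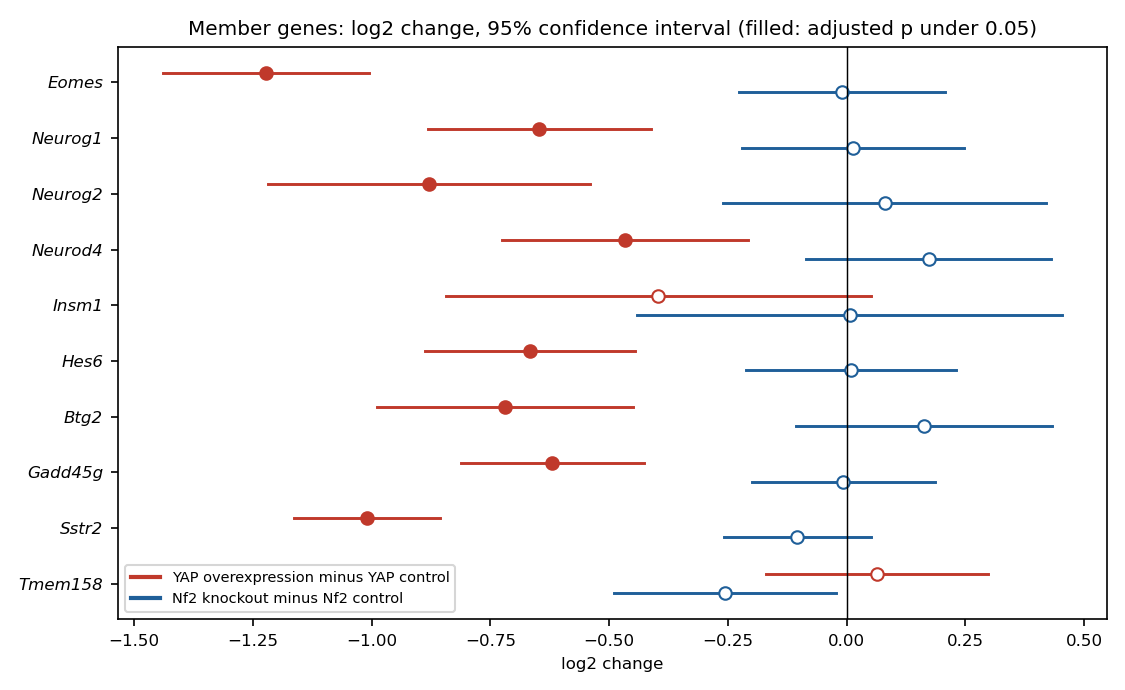
Log2 change of each member gene with its 95% confidence interval, for YAP overexpression minus YAP control (red, upper of each pair) and Nf2 knockout minus Nf2 control (blue, lower); filled points passed an adjusted p under 0.05 over all genes. The 8 filled points are all red, from -1.22 to -0.47, and every blue interval but that of Tmem158 includes 0.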

How the data were processed

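RNA was measured on 12 arrays, 100 ng of total RNA each. The authors deposited a log2 intensity for each probe set and array. RMA, Affymetrix Expression Console 1.1 and Partek 6.5 appear in the submitters' processing notes, which give no roles here. From these values, each gene was represented by its brightest probe set over the 12 arrays, named through the platform table and current RefSeq symbols. A fit of 4 group means with limma 3.58.1 (R 4.3.3, 8 residual and 4.096 prior degrees of freedom) ran over all 17097 genes, and again over all 45037 probe sets. Tests were two-sided, with Benjamini-Hochberg adjustment over all features and a threshold of 0.05. The number of arrays limits precision. The spread of each gene was estimated over all 12 arrays, so the intervals for either experiment rest on both. The fit was tested on simulated data.

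Members and gene lists were chosen with earlier results of these data known. All members were named. Of the other lists, the 3 largest changes per list were to be named, and further genes were named after their values were seen. List genes matched to no single-gene probe set were not analysed here. Same-numbered arrays had residual correlations of 0.271, 0.212 and 0.207 in the Nf2 experiment, and of 0.0971, -0.195 and -0.204 in the YAP experiment. The main fit paired no arrays. The replicate block, used only as an alternative, paired same-numbered arrays in both experiments. Alternatives changed the normalization, probe set choice, filter, moderation, array weights, samples fitted and block.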

Additional observations from a re-analysis of the deposited data

Results flagged for a closer look

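The effect on Eomes differed between the experiments by -1.21 on the log2 scale (YAP overexpression effect minus Nf2 knockout effect, limma interaction, adjusted p = 0.00322). All 3 YAP overexpression arrays were under all YAP control arrays, while the Nf2 groups overlapped. For Sstr2 the same difference was -0.91 (adjusted p = 0.00274), a least size, because its YAP overexpression values of 4.44, 4.50 and 4.58 were under the array medians and at the level of the dim member probe sets. By gene, both were called in each of the 20 alternative fits that gave the interaction; the probe set fit with the replicate block did not call Sstr2 (adjusted p = 0.0552).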

How the results depend on the processing

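The count of members that fell with YAP overexpression was 6 to 8 of 10 over 15 alternatives, and 0 of 10 were called for Nf2 knockout in all 15. Of 150 member results for YAP overexpression, 137 kept direction and call, 11 lost the call and 2 changed sign; of 150 for Nf2 knockout, 13 changed sign, none of them called. The cause was not tested. With the replicate block, 689 genes were called for YAP overexpression (1078 without it), 21 for Nf2 knockout (43 without it) and 21 for the difference (48 without it), with 2 member probe sets for the difference (4 without it); the Neurod4 call was lost (adjusted p = 0.0509). With only the 6 arrays of an experiment, 361 genes were called for YAP overexpression and 25 for Nf2 knockout, and fewer samples were fitted. Array weights gave 67 genes for Nf2 knockout, and trend and robust moderation 129 for the difference. Members with a called difference numbered 4 without _x_at and _s_at probe sets, 4 without genes under the median level, and 6 with trend and robust moderation. Leaving out 1 array gave 529 to 1241 genes for YAP overexpression, 20 to 32 for Nf2 knockout and 21 to 161 for the difference, 2 to 6 members and 3 to 10 member probe sets with a called difference, and a member median of -0.0292 to 0.035 for Nf2 knockout. The counts of 161 genes, 6 members and 10 probe sets came without YAP overexpression replicate 2, and the 529 without YAP control replicate 3. Signs changed for Nf2 knockout with array weights (Eomes 0.0074, Neurog1 -0.007) and quantile normalization (Hes6 -0.0064). Leaving out 1 array gave -0.06 to 0.05 for Eomes, -0.0267 to 0.0233 for Gadd45g, -0.015 to 0.035 for Hes6, -0.0917 to 0.1033 for Insm1 and -0.0483 to 0.0867 for Neurog1 with Nf2 knockout, and -0.035 to 0.145 for Tmem158 with YAP overexpression.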
